A study of Mus musculus with 2 samples.

Results

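Mir322, Mir503, Mir351, Mir542, Mir450-1, Mir450-2 and Mir450b are 7 microRNA genes that lie side by side on the minus strand of mouse chromosome X. They were examined in embryonic limb, as 7 of the 1973 genes in the deposited tables. The genes were taken by symbol, and the cluster was picked on its own-strand read counts in these same libraries, so its levels are a description and no test is made of them. The data were microRNA sequencing libraries of limb tissue from B6NCrl mouse embryos, a C57BL/6N substrain, at day 14.5 of development. There was 1 group of 2 samples, biological replicates 2 and 1, with no treatment, genotype or age contrast. Each sample was taken from 4 limbs, and the collection days differed. Donor and pup labels were the same for both, and both were labelled as pooled male and female. Whether the replicates were separate animals rests on their numbers and collection days, so the spread between them may be partly technical.

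MicroRNAs are cut from hairpins in longer transcripts. One strand of the hairpin stem, the 5p or the 3p arm, is loaded into Argonaute and represses mRNAs that pair with its seed, bases 2 to 8. Neighbouring hairpins on a strand are often processed from a shared primary transcript. miR-322, the rodent counterpart of human miR-424, and miR-503 belong to the miR-15/16 group of cell cycle inhibitors, and in differentiating mouse muscle cells they reduce the phosphatase Cdc25a. miR-351 carries the seed of the lin-4 counterpart miR-125. In human cells miR-542-3p represses survivin, an inhibitor of apoptosis.

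The 13 distinct mature forms of the 7 hairpins fell on 12 seeds. They are shown 5′ to 3′, from RefSeq on GRCm38.p6, with the seed in capitals. The seeds bear on which mRNAs pair, and long shared stretches on which reads could be told apart. The 6 forms of the 5p arms, in the order of the strand, were the following.
miR-322-5p: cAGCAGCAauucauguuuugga
miR-503-5p: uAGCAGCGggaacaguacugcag
miR-351-5p: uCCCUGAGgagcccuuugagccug
miR-542-5p: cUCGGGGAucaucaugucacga
miR-450a-5p: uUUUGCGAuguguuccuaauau
miR-450b-5p: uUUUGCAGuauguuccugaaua
The 7 forms of the 3p arms were the following.
miR-322-3p: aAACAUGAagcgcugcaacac
miR-503-3p: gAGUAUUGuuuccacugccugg
miR-351-3p: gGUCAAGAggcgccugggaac
miR-542-3p: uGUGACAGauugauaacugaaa
miR-450a-2-3p: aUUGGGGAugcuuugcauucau
miR-450a-1-3p: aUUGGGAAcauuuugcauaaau
miR-450b-3p: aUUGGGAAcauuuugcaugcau
miR-322-5p and miR-503-5p share a run of 6 bases that lies within their seeds. The 3p arms of Mir450-1 and Mir450b share a seed, whereas the 5p arms of the Mir450 genes carry 2 different seeds. The tables count reads per gene, so which arm a read came from was not recorded.

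miR-450a-5p was the only one of the 13 forms found whole in more than 1 annotated hairpin, since Mir450-1 and Mir450-2 both hold it. A full-length read of it therefore aligns to both places, and reads with several alignments were tallied apart and given to no gene. The hairpins of the 3 Mir450 genes are shown with their mature forms in capitals. Mir450-2 and Mir450-1 carry this ambiguity, and Mir450b is shown for its likeness to Mir450-1.
Mir450-2 hairpin: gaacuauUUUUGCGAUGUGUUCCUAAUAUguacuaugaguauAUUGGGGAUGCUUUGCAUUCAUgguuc
Mir450-1 hairpin: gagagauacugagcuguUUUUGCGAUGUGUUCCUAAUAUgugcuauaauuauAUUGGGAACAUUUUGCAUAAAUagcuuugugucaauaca
Mir450b hairpin: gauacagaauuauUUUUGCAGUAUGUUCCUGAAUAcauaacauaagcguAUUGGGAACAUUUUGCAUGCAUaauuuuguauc
Mir450-2 and Mir450-1 share an unbroken run of 25 bases, and Mir450-1 and Mir450b one of 19 bases. Of the 22 bases of miR-450a-1-3p, 20 are the same as in miR-450b-3p, with the first 18 unbroken. The longest run that any mature form of Mir322, Mir503, Mir351 or Mir542 shared with another hairpin was 13 bases. The counts of Mir450-1 and Mir450-2 are lower limits for their hairpins. For the other members no whole form was found in another annotated hairpin. The rest of the genome was not searched for further copies.

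On GRCm38 the cluster runs from 53047997 to 53054349 on chromosome X, 6.35 kb in all. Mir322 (ENSMUSG00000065418.1, 53054255 to 53054349) comes first on the minus strand. Mir503 (ENSMUSG00000076122.1, 53053984 to 53054054) follows after 200 bases. Mir351 (ENSMUSG00000065503.1, 53053255 to 53053353) lies 630 bases further on. A gap of 3767 bases, which holds the noncoding gene Gm28730, separates it from Mir542 (ENSMUSG00000076140.1, 53049403 to 53049487). Mir450-2 (ENSMUSG00000076399.1, 53048299 to 53048367), Mir450-1 (ENSMUSG00000065486.1, 53048154 to 53048244) and Mir450b (ENSMUSG00000076050.1, 53047997 to 53048078) end the row, with 54 and 75 bases between them. In GENCODE M21 no other gene overlaps a member, and the noncoding gene C430049B03Rik ends 696 bases upstream of Mir322. RefSeq draws C430049B03Rik longer, from 53053112 to 53057190, so that it covers Mir322, Mir503 and Mir351 and leaves the other 4 members outside.

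The libraries held 8387546 reads in replicate 2 and 9001596 in replicate 1, and 4144385 and 4608816 of these lay on a microRNA gene in its own orientation. Levels are given in CPM, the reads of a gene scaled to a total of 1000000 own-strand counts, as mean ± SD over the 2 replicates. Reads with several alignments made up 32.6% and 31.8% of all reads in replicates 2 and 1. Limb markers were present at high levels: Mir140 of cartilage, Mir196b of the HoxA cluster, Mir214 of mesenchyme and Mir203 of epidermis ranged from 28950 to 58999 CPM over both libraries, and Mir206 of skeletal muscle from 4411 to 6041 CPM. Mir122 of liver lay at 13.5 and 6.29 CPM, and Mir217 of pancreas at 2.41 and 1.95 CPM, in replicates 2 and 1. The brain genes Mir124a-1, Mir124a-2, Mir124a-3 and Mir9-2 had 0 reads, and Mir9-3 had 0 reads in replicate 2 and 2 in replicate 1. These genes have near-identical copies, and reads aligning to several copies are given to no gene, so their counts do not show that the microRNAs were absent. The intervals given below are exact at 95% (Clopper-Pearson for shares and ratios, Poisson for levels) and cover counting error alone, since no molecular identifiers were recorded.

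All 7 members had at least 10 reads in both libraries, a level that 16.9% of all 1973 genes reached. Together they took 67470 CPM in replicate 2 and 65319 CPM in replicate 1, or 6.64% ± 0.152 of the own-strand counts (SD, n = 2), which hold no read with several alignments. With those reads in the total, their mean sum was 40460 CPM, against 66395 CPM without them. None had a read on the opposite strand. In whole limb tissue, fewer cells that make a microRNA and less of it per cell cannot be told apart. Genes also yield reads with unequal efficiency, which was not measured. The mature forms are all 21 to 24 bases long, and levels are compared as reads per gene without a length correction.

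Mir322 carried most of the cluster. It had 227524 reads (54899 CPM) in replicate 2 and 242103 reads (52530 CPM) in replicate 1, a mean of 53715 ± 1675 CPM. By counted reads it ranked 3 among all genes in each library and was the highest of the 120 microRNA genes on chromosome X. Genes whose mature form has several copies are undercounted in such ranks. Its share of the cluster's reads was 81.4% (interval 81.2 to 81.5) in replicate 2 and 80.4% (80.3 to 80.6) in replicate 1. Because Mir450-1 and Mir450-2 are undercounted, the cluster shares of the other members, here and below, are upper values, as far as copies were searched.

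Mir351 was the next highest, with 8059 CPM in replicate 2 and 8065 CPM in replicate 1 (33400 and 37170 reads). By column sums the replicates gave nearly the same level, with an SD of 4.16 CPM. That SD lies within counting error, since the Poisson interval in replicate 2 was 7973 to 8146 CPM. Its share of the cluster was 12.1% ± 0.285. Mir503, which lies between Mir322 and Mir351, had 2644 CPM in replicate 2 and 2653 CPM in replicate 1 (10956 and 12229 reads), or 3.99% ± 0.102 of the cluster. Levels thus did not fall steadily along the strand: Mir351, further from the 5′ end, had 3.05 and 3.04 times the reads of Mir503 in replicates 2 and 1.

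Mir542 had 1432 CPM in replicate 2 and 1569 CPM in replicate 1 (5935 and 7230 reads), a mean of 1500 ± 96.6 CPM. Mir450b had 355.9 CPM in replicate 2 and 415.9 CPM in replicate 1 (1475 and 1917 reads), a mean of 385.9 ± 42.5 CPM. In counted reads Mir450b, which lies last, was the highest of the 3 Mir450 genes. Reads of miR-450a-5p are missing from Mir450-1 and Mir450-2, so their true order was not settled. The genes with the shared mature form were the lowest members in counted reads. Mir450-1 had 48.7 CPM in replicate 2 and 54.7 CPM in replicate 1 (202 and 252 reads). Mir450-2 had 31.6 CPM in replicate 2 and 31.0 CPM in replicate 1 (131 and 143 reads). How many reads of miR-450a-5p were set aside for aligning to both was not given in the tables.

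**Figure D1:**
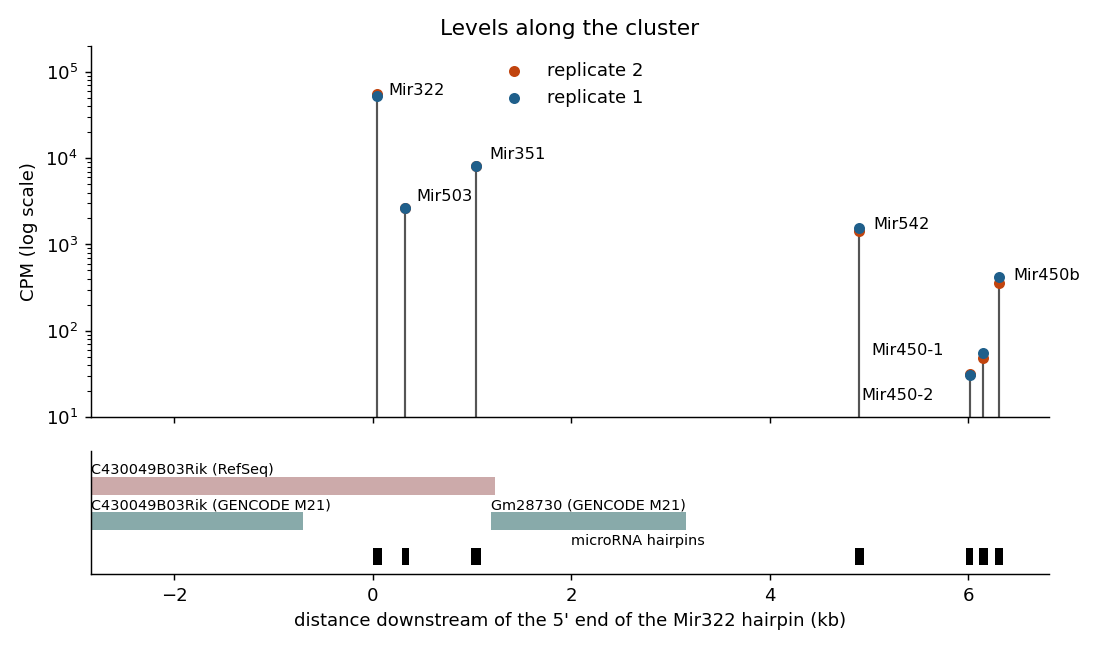
Own-strand CPM of the 7 members in replicates 2 and 1 (log scale) against the distance downstream of the 5′ end of the Mir322 hairpin in kb; grey stems reach from the axis to the mean, and the lower panel draws the hairpins and the noncoding genes to scale. Mir322 stands at 53715 CPM at the 5′ end, Mir503 lies below Mir351, and Mir450b lies above Mir450-1 and Mir450-2 at the far end. The counts of Mir450-1 and Mir450-2 lack the reads that align to both.

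By mean level in counted reads, from which those shared by Mir450-1 and Mir450-2 are missing, the order was Mir322, Mir351, Mir503, Mir542, Mir450b, Mir450-1 and Mir450-2. All 6 neighbouring pairs in this order were separated, in that the values of both libraries did not overlap and the gap exceeded the larger SD. Mir322 had 6.66 ± 0.211 times the reads of Mir351. Mir450b had 7.45 ± 0.216 times those of Mir450-1, an upper value because Mir450-1 is undercounted. The narrowest steps in the counted reads were Mir503 over Mir542 (1.77 ± 0.109 times) and Mir450-1 over Mir450-2 (1.65 ± 0.156 times). For the last pair the Poisson intervals did not overlap in either library, with 42.3 to 55.9 CPM for Mir450-1 against 26.4 to 37.5 CPM for Mir450-2 in replicate 2. From the top to the bottom of the cluster the reads differed by 1737 times in replicate 2 and 1693 times in replicate 1, a span that includes the undercounted Mir450-2. From Mir322 down to Mir450b, the lowest member with no whole form in another annotated hairpin, it was 154 and 126 times.

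The members covered by the RefSeq form of C430049B03Rik held 97.2% of the cluster's reads in replicate 2 and 96.8% in replicate 1. The 4 members outside it held 2.77% and 3.17%. These are lower values, and those of the covered members upper values, because Mir450-1 and Mir450-2 are undercounted. The hairpins also differed in composition. GC content was 50.5% to 54.9% in Mir322, Mir503, Mir351 and Mir542, and 30.5% to 36.2% in the 3 Mir450 genes. Predicted folding energies ranged from -42.9 kcal/mol for Mir322 to -26.5 kcal/mol for Mir450-2. Mir450-1 had -41.0 kcal/mol. The hairpins were 69 to 99 bases long. Per base, the energies ranged from -0.530 kcal/mol for Mir503 to -0.377 kcal/mol for Mir351.

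Set against all genes, the members spread over mean ranks of 3, 27, 63, 88, 136, 227 and 239 from Mir322 to Mir450-2. With 1 group there is no pattern across conditions, so the genes most like each member were named by level, as those directly above and below it in mean CPM. Mir322 lay between Mir140 (57289 ± 2418 CPM) and Mir196b (51975 ± 3475 CPM). Mir140 was above Mir322 without overlap, whereas the values of Mir196b overlapped those of Mir322. Mir351 lay between Mir431 (8099.5 ± 1026 CPM) and Mir379 (7699.7 ± 589 CPM), both of the imprinted Dlk1-Dio3 locus, and overlapped both. Mir503 overlapped both Mir532 (2770.5 ± 198 CPM) and Mir298 (2625.5 ± 145 CPM). The neighbours of Mir542 were Mir107 and Mir467e, those of Mir450b Mir196a-2 and Mir669l, and those of Mir450-1 Mir146 and Mir7j, all with overlapping values. Mir450-2 overlapped Gm23935 below it and not Mir3099 above it.

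On chromosome X the cluster took 72.4% of the own-strand microRNA reads in replicate 2 and 72.0% in replicate 1. Of the 120 genes there, 39 were detected. Members held ranks 1, 3, 6, 9, 18, 27 and 30 among the X-linked genes. Reads with several alignments are missing here too, so genes whose mature form has several copies are undercounted in the share and the ranks.

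The levels of Mir322 and Mir351 were next set beside the genes elsewhere that carry the same seed, which can repress the same mRNAs. Counts are per gene and include reads of either arm, so they do not give the levels of the forms that hold the seed. The relatives of miR-322-5p are shown with the seed in capitals.
miR-15a-5p: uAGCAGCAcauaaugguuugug
miR-15b-5p: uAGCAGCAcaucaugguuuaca
miR-16-5p: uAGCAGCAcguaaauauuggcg
miR-195a-5p: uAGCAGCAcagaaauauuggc
miR-497a-5p: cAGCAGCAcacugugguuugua
Outside the seed they diverge from miR-322-5p. Over the whole length, seed included, miR-15a-5p has 15 and miR-16-5p has 12 of its 22 bases at the same positions. Of 11 genes with this seed in RefSeq, 10 were in the tables and 6 were detected. Mir195b, Mir6342, Mir6353 and Mir6419 had no read, which at 3 reads as the upper limit allows 0.724 CPM (replicate 2) or 0.651 CPM (replicate 1).

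Mir322 held 85.3% of the reads of the family's genes, from either arm, in replicate 2 and 85.8% in replicate 1. It was followed by Mir15a with 3778 and 3346 CPM, Mir16-1 with 2573 and 2473 CPM and Mir15b with 1496 and 1302 CPM in replicates 2 and 1. Mir195a and Mir16-2 lay at 809 ± 49.2 and 783 ± 8.83 CPM. Mir322 had 15.1 ± 0.827 times the reads of Mir15a, the next highest, and 5.92 ± 0.188 times those of all its relatives together. miR-16-5p is held whole by both Mir16-1 and Mir16-2, so the relatives are undercounted and these shares are upper values. Mir497, the gene of miR-497a-5p, was not found by that name among the counted genes, so it has no level here.

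miR-351-5p shares its first 8 bases with miR-125a-5p and miR-125b-5p, shown with the seed in capitals.
miR-351-5p: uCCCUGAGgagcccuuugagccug
miR-125a-5p: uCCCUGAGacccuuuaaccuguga
miR-125b-5p: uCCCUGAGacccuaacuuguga
After those bases the sequences part when read position by position. Shifted by 3 bases, miR-351-5p and miR-125a-5p have 12 identical positions. Of the 6 genes with this seed in the tables, 4 were detected. Mir351 held 56.2% of their reads, from either arm, in replicate 2 and 58.7% in replicate 1. Mir125a had 4274 and 3815 CPM, Mir125b-1 had 1317 and 1151 CPM, and Mir125b-2 had 681 and 697 CPM in replicates 2 and 1. Mir351 had 1.89 times the reads of Mir125a in replicate 2 and 2.11 times in replicate 1. miR-125b-5p is held whole by both Mir125b-1 and Mir125b-2, so the share of Mir351 is also an upper value.

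**Figure D2:**
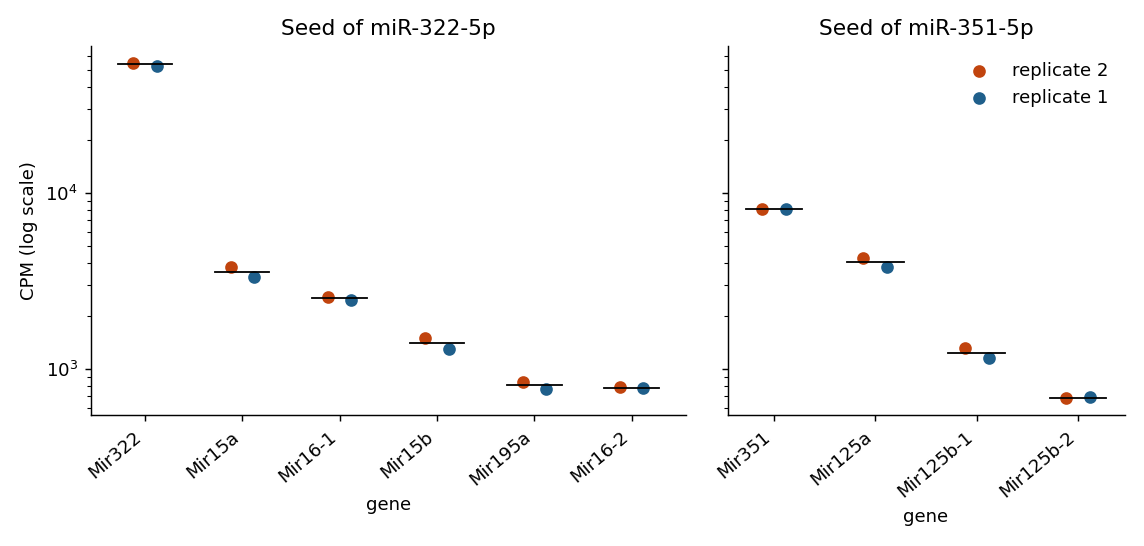
Own-strand CPM (log scale) in replicates 2 and 1 of the detected genes that share the seed of miR-322-5p (left) and of miR-351-5p (right); black bars are means. Mir322 lies 15.1 times above Mir15a, while Mir351 lies 2.00 times above Mir125a. Reads of either arm are counted, so the points are levels of genes and not of the forms with the seed.

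The 2 libraries were then compared gene by gene, as log2 ratios of replicate 2 over replicate 1, with a prior count of 0.5. With 1 library on each side there is no replicate check and no p-value. Of the 407 genes with at least 10 reads in total, 12.3% differed by at least 1.5-fold, and 0 of the 7 members did. The members are well counted, and many of the genes past that fold are not: among the 275 genes with at least 100 reads in total, which include every member, 1.09% passed. The ratio was 0.06 for Mir322 (interval 0.06 to 0.07), -0.0011 for Mir351 (-0.02 to 0.02) and -0.0053 for Mir503 (-0.04 to 0.03). It was -0.13 for Mir542 (-0.18 to -0.08) and -0.22 for Mir450b (-0.32 to -0.13). The intervals of Mir450-1 (-0.17, from -0.44 to 0.11) and Mir450-2 (0.03, from -0.33 to 0.38) included 0.

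With column sums, 5 of the 7 members were lower in replicate 2, against 43.0% of all tested genes; with TMM totals 6 of 7 were lower, against 54.8%, and with DESeq2 size factors 7 of 7, against 57.2%. The sign for Mir450-2 flipped with both scalings and with reads of several alignments in the total, that for Mir351 flipped with counts on either strand, and that for Mir322 flipped with DESeq2 size factors, at -0.0083. With TMM totals and DESeq2 size factors, the ratio was -0.06 and -0.07 for Mir351 and -0.07 and -0.08 for Mir503. These lay outside their intervals by column sums, as did the rescaled ratios of Mir322 and Mir542. Ratios between members do not depend on scaling. The share of Mir542 in the cluster was 2.12% in replicate 2 and 2.40% in replicate 1, and that of Mir450b was 0.527% and 0.637%, while Mir322 had the larger share in replicate 2. The median log2 ratio of the 7 members was -0.0053, against 0.04 over all 407 tested genes. Genes of 1 cluster are not independent measurements.

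**Figure D3:**
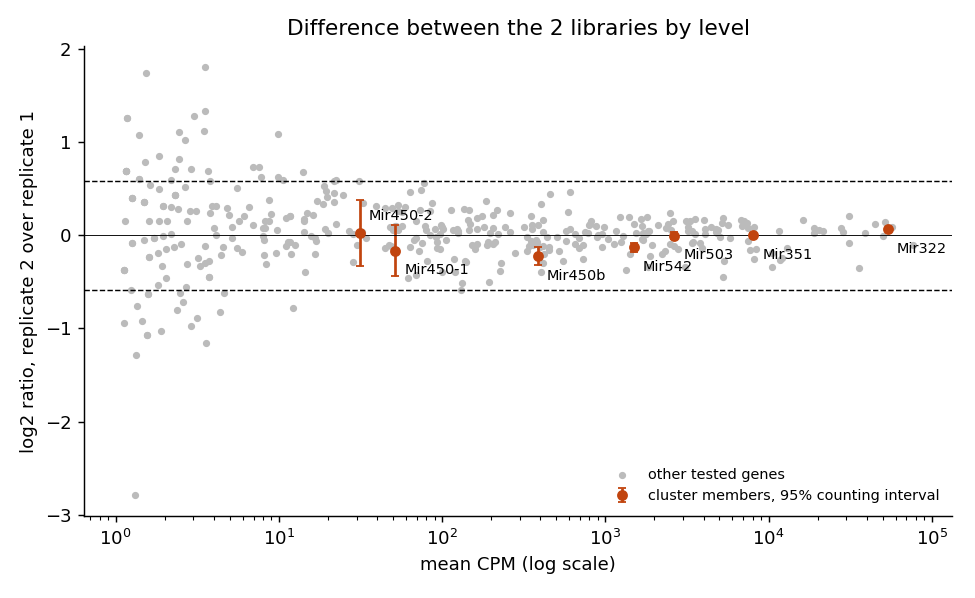
Log2 ratio of replicate 2 over replicate 1 against mean CPM (log scale) for the 407 tested genes; members are in orange with exact 95% counting intervals, and dashed lines mark 1.5-fold. All 7 members lie between the dashed lines, the lowest being Mir450b at -0.22.

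A pair of other X-linked clusters was set beside the members, as a view of how far neighbouring genes moved in the same libraries. The Mir106a to Mir363 cluster, a counterpart of miR-17-92 that promotes proliferation, begins 305 kb from Mir450b. Its 6 genes summed to 330 CPM in replicate 2 and 237 CPM in replicate 1, with log2 ratios from 0.29 to 0.67. The 5 genes from Mir500 to Mir532 summed to 6249 CPM in replicate 2 and 6988 CPM in replicate 1, with ratios from -0.20 to -0.09. Reads with several alignments are missing from both sums, so genes whose mature form has several copies are undercounted in them. The 7 members summed to a log2 ratio of 0.05, with single ratios from -0.22 to 0.06. Their range lay below that of all 6 Mir106a to Mir363 genes and reached both above and, through Mir450b, below that of the Mir500 to Mir532 genes. Whether the clusters differ from each other in this was not tested, since 1 library stands on each side.

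**Figure D4:**
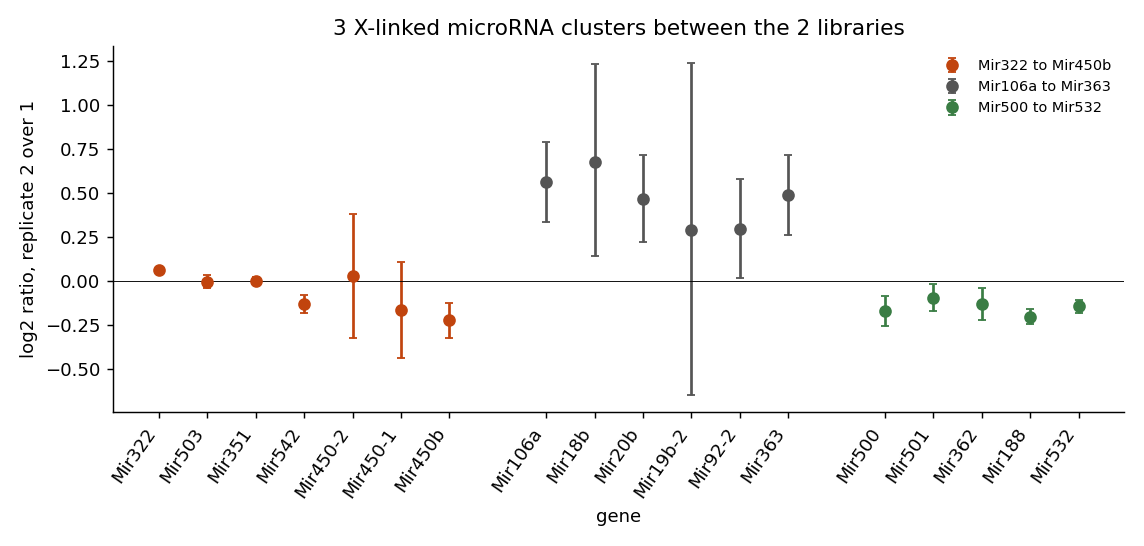
Log2 ratio of replicate 2 over replicate 1, with exact 95% counting intervals, for the genes of 3 X-linked clusters in the order of their lists. The members lie from -0.22 to 0.06, the Mir106a to Mir363 genes from 0.29 to 0.67 and the Mir500 to Mir532 genes from -0.20 to -0.09.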

How the data were processed

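The authors deposited 1 table of raw gene counts per library, with 3 count columns and 4 tally rows. Per the read-me texts deposited by the authors, reads were aligned to mm10 and counted on GENCODE M4. Which aligner and counter made them is not given in the sources used here. The columns were read, from their values, as either strand, own strand and opposite strand, and own-strand counts were used. Tally rows (unmapped reads 13.7% and 12.8%, reads with several alignments 32.6% and 31.8%, reads on no gene 4.31% and 4.19% in replicates 2 and 1) stayed out of totals.

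Names and positions came from GENCODE M21 of the same build, where 1894 of 1973 identifiers matched and all 7 members did. Sequences came from RefSeq on GRCm38.p6, which held all 13 mature forms. Hairpins came from GENCODE M21 transcripts and were folded with RNAfold 2.7.2.

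CPM were counts over the column sum. Log2 ratios carried a prior count of 0.5 and exact conditional binomial intervals, and the ratio script was tested on simulated data. Scaling alternatives used edgeR 4.0.16 and DESeq2 1.42.0 in R 4.3.3, and the rest Python 3.11.15 with scipy 1.17.1. The quasi-likelihood test was not run, since 1 group gives no contrast. Members, lists, level neighbours and tests were chosen with earlier results of these data known. Named genes were the 7 members, the genes directly above and below each in mean CPM, genes of the same seed and a pair of X-linked clusters. Alternatives were the scaling, the strand column, the count minimum, the fold, the prior count and leaving out a library. Results on seed families, and the count of members lower in replicate 2, were added after the data were seen.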

Additional observations from a re-analysis of the deposited data

Results flagged for a closer look

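Reads appeared in the opposite-strand column, which the comparisons above do not use, at Mir497b, with 3405 in replicate 2 and 3623 in replicate 1 against 3 and 1 on its own strand. They come to 804 ± 25.1 CPM (SD, n = 2), against an upper limit of 0.724 CPM for a gene with no read in replicate 2 and 0.651 CPM in replicate 1. Adding them to the seed family of miR-322-5p, which was tried after seeing the data, put the share of Mir322 at 84.2% in replicate 2 and 84.7% in replicate 1. Which gene the reads opposite Mir497b belong to was not tested. Mir497b was not the only such gene. At Mir299b 9995 and 12115 reads lay on the opposite strand, against 14 and 7 on its own, in replicates 2 and 1.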

How the results depend on the processing

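The order of the members by level, the share of Mir322 in the cluster and the span from the highest to the lowest member do not depend on the total. The sum of the cluster, 66395 CPM by column sums, was 40460 CPM with reads of several alignments in the total and 64309 CPM with counts on either strand, and from 65319 to 67470 CPM with 1 library left out. The share of Mir322 was then from 80.4% to 81.4%. The log2 ratio of the cluster sum, 0.05 by column sums, was -0.015 with TMM totals, -0.025 with DESeq2 size factors and 0.013 with reads of several alignments in the total. The count of members past the fold was 0 in each setting tried, also without a count minimum, where 37.1% of 687 genes passed 1.5-fold. At 1.2-fold, which 35.4% of tested genes passed, it was 0 by column sums, whereas Mir450b passed 1.2-fold with TMM totals (-0.29) and DESeq2 size factors (-0.30). Members lower in replicate 2 numbered 4 with counts on either strand. Depth limits Mir450-1 and Mir450-2, which rest on 131 to 252 reads per library. No paired analysis was possible because there was 1 group.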
